A study of Mus musculus with 31 samples.

Results

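Cells labelled Drd1a, after a dopamine receptor gene, were compared with cells labelled Drd2 in the cortex of young mice, by the messages attached to their ribosomes. The comparison rests on 8 of the 31 arrays of the series, 4 labelled young cortex, Drd1a cells and 4 labelled young cortex, Drd2 cells, chosen by their sample titles alone. Dopamine acts through receptors of the D1 class, which raise cyclic AMP, and of the D2 class, which lower it. In the striatum they mark the projection neurons of the direct and of the indirect pathway. In the cortex, D1 receptors are known from projection neurons of the deep layers and from some interneurons, and D2 receptors from a sparser set of neurons that includes cells of layer 5. Drd1a is the older name of Drd1, and the array lists the gene as Drd1.

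The mice of both groups were 6 weeks old, and per the labels the entire cortex was taken. RNA was obtained by translating ribosome affinity purification, in which ribosomes tagged in 1 marked cell type are pulled down with the messages they are translating, and was hybridised to 1 exon array per sample. The other groups used here were Drd1a and Drd2 cells of the cortex at 2 years (4 arrays each), Drd1a and Drd2 cells of the striatum at 6 weeks (3 and 4 arrays) and Drd1a cells of the striatum at 2 years (4 arrays). The labels describe no treatment, strain, sex, transgene or driver and do not state if each replicate was a mouse of its own, so a p-value measures the spread between these samples, which may be technical.

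Each value is a log2 signal relative to the median of that gene over the 31 arrays, so a value of 1 lies 2-fold above the gene's own median and levels of different genes cannot be set against each other. Values by array are given in the order of replicates 1 to 4. A difference is the mean of the Drd1a arrays minus the mean of the Drd2 arrays, with the standard error of the limma fit to all 31 arrays after the sign ±. A gene was called, and is said to be higher in one group, where its p, adjusted by the Benjamini-Hochberg method across the 16345 features, lay under 0.05 and the difference reached 1.2-fold. In samples pooled from many cells, fewer cells of a type and less RNA per cell cannot be told apart. The medians of the 8 arrays lay between -0.056 and 0.011.

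Of the 16345 features, 1956 were called. Drd1a cells were higher for 1090 of them (6.67% of all features) and Drd2 cells for 866 (5.30%). The counts of gene lists below are to be set beside these shares. At a 2-fold difference, 132 features were higher in Drd1a cells and 57 in Drd2 cells. The 4 arrays of one group lay entirely above the 4 of the other for 3313 features (20.3%), and 1756 features were both called and without overlap (10.7%). The median difference over all features was -0.0055. Most called differences were modest, with a median size of 1.40-fold. Quantile normalization of the deposited values gave 1898 called features, 1604 of them shared with the same direction. It reduced by over 1.5 times the differences of 45 of the 140 called genes named here, 44 of which were higher in Drd1a cells, and raised those of 4. Such values are given in the paragraphs on the genes concerned.

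The receptor genes that name the groups parted the arrays in the labelled direction. Drd1 stood at 0.070, 0.67, 0.73 and 0.78 on the Drd1a arrays, against -2.93, -2.90, -2.87 and -2.93 on the Drd2 arrays, a difference of 3.47 ± 0.18 (adjusted p = 3.86e-14). The 4 Drd2 arrays lay within 0.066 of each other, while replicate 1 of the Drd1a group was 0.599 below the next. Drd2 stood at -4.87, -4.31, -4.47 and -4.56 on the Drd1a arrays, against 0.044, 0.28, 0.15 and 0.38 on the Drd2 arrays (-4.76 ± 0.17, adjusted p = 5.32e-18). Drd5, which encodes the other D1-class receptor, was higher in Drd1a cells as well (0.49 ± 0.13, adjusted p = 0.00778), and its call was lost when replicate 1 of both groups was left out (0.41, adjusted p = 0.0861). Drd3 (-0.25 ± 0.20, adjusted p = 0.59) and Drd4 (0.0088 ± 0.13, adjusted p = 0.997), both D2-class receptors, were not called.

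Genes that lie beside the 2 receptor genes included some of the largest differences on the array. Ttc12, the second gene from Drd2 in the RefSeq order of chromosome 9, stood at -4.74, -4.92, -4.95 and -4.77 on the Drd1a arrays, against 0, 0.29, 0.33 and 0.51 on the Drd2 arrays. Its difference of -5.13 ± 0.10 exceeded that of Drd2 itself and was the largest of any gene in the deposited values (adjusted p = 1.41e-24). Under quantile normalization it was -4.11, beside -3.64 for Drd2 and 4.32 for Drd1. Ankk1, a predicted kinase gene between Drd2 and Ttc12, was also higher in Drd2 cells, with -1.52, -1.33, -1.70 and -1.50 on the Drd1a arrays and 0.72, 0.63, 0.68 and 0.72 on the Drd2 arrays (-2.20 ± 0.11). On the other side of Drd2, Usp28, a ubiquitin protease gene 5 positions away, differed by -0.52 ± 0.080 (adjusted p = 2.58e-05), while Tmprss5 (-0.0013) and Zw10 (-0.25, adjusted p = 0.0444 and under 1.2-fold), which lie between them, were not called. Ncam1, the cell adhesion gene next after Ttc12, went the other way and was higher in Drd1a cells (0.42 ± 0.11, adjusted p = 0.00988), and its call was lost without Drd2 replicate 3 (0.36, adjusted p = 0.054). Beside Drd1 on chromosome 13, Sfxn1, a mitochondrial serine transporter gene, stood at 0.92, 0.98, 1.18 and 0.96 on the Drd1a arrays, against -0.13, -1.07, -1.28 and -0.79 on the Drd2 arrays (1.83 ± 0.16). Replicate 1 of the Drd2 group was the highest of its group for Sfxn1 by 0.664, and the groups did not overlap. Msx2, the neighbour of Drd1 on its other side, was not called (0.092 ± 0.10). Of the 5 listed genes beside Drd1, Sfxn1 was called and 4 were not. Of the 8 listed beside Drd2, 3 were higher in Drd2 cells, against 5.30% of all features. Another 2 of them, Ncam1 and Htr3a (0.99), were higher in Drd1a cells, against 6.67% of all features. Whether the position of these genes has a part in their differences was not tested.

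Neuropeptide genes were among the largest differences in favour of Drd1a cells, and the promoters of 2 of them are printed with that of Gpr6, a receptor gene higher in Drd2 cells. The D1 and D2 receptor classes act in opposite ways on cyclic AMP, and TGACG is the core of the sequence that the cyclic AMP response element binding protein recognises, so this motif was searched for on both strands. The windows are the 250 bases before the start of each gene, from RefSeq on build GRCm38.p6, and capitals mark TGACG or its reverse complement CGTCA. All windows printed hold the motif, while those of other genes searched, some without a match, are only described.
Vip, chr10:5638968-5639217, plus strand: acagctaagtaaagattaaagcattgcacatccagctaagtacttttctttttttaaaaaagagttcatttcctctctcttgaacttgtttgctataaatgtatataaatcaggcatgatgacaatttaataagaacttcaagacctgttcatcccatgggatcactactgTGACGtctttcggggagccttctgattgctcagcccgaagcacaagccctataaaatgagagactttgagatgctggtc
Tac1, chr6:7554811-7555060, plus strand: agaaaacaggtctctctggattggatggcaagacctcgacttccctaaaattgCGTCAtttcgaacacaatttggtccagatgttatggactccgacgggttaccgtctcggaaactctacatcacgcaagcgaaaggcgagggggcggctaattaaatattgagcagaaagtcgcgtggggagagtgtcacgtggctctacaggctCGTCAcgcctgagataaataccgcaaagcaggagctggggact
Gpr6, chr10:41072291-41072540, minus strand: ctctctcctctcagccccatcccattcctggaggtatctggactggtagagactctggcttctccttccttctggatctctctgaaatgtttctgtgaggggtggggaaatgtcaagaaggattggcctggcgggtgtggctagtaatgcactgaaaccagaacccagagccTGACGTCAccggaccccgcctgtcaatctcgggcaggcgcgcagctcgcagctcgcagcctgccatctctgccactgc
The Vip window holds the motif once, 79 bases before the start, and the Tac1 window holds 2 matches, at 197 and 43 bases. In the Gpr6 window both strands match, 78 and 75 bases before the start, and the overlapping matches form the full palindrome TGACGTCA. The window of Ttc12, the gene with the largest difference in the deposited values, held 1 match, 107 bases before the start. Windows of Drd1, Drd2, Tac2 and Npy held no match, and no match says only that these letters are absent there. The short motif was present in 17.8% of all 32851 promoter windows of the table and in 22.1% of those of genes on the array. It was present in 23.2% of windows of genes higher in Drd1a cells and in 25.4% of those of genes higher in Drd2 cells. The full palindrome was present in 1.87% of windows of genes higher in Drd1a cells and in 2.33% of those of genes higher in Drd2 cells, beside 2.03% of genes on the array. These shares are descriptions, and a match is not evidence of binding.

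Vip, the vasoactive intestinal peptide gene expressed by a class of cortical interneurons, had the largest difference in favour of Drd1a cells in the deposited values. It stood at 4.33, 3.94, 4.18 and 4.16 on the Drd1a arrays, against 0.45, 0.20, 0.10 and 0 on the Drd2 arrays, a difference of 3.96 ± 0.13, or 15.6-fold (adjusted p = 2.35e-19). The lowest Drd1a array was 3.49 above the highest Drd2 array. Tac2, which encodes neurokinin B, stood at 2.21, 2.20, 2.26 and 2.21 on the Drd1a arrays, against 0, -0.35, 0.026 and -0.14 on the Drd2 arrays (2.34 ± 0.16). Npy, the neuropeptide Y gene of other interneurons, stood at 2.61, 2.09, 2.36 and 1.91 on the Drd1a arrays, against 0.76, 0, 0.29 and 0.25 on the Drd2 arrays (1.92 ± 0.18). Tac1, which encodes substance P and serves both as a peptide of direct-pathway neurons and of some cortical interneurons, stood at 0, 0.47, 0.61 and 0.68 on the Drd1a arrays, against -1.65, -1.60, -1.51 and -1.22 on the Drd2 arrays (1.93 ± 0.17). Quantile normalization gave 2.66 for Vip, 1.68 for Tac2, 1.13 for Npy and 3.25 for Tac1, all still called. Under it the difference of Vip was smaller than those of Tac1 and Drd1 (4.32), so its rank depends on the normalization. For all 4 peptide genes the 2 groups were far apart. Replicate 1 of the Drd1a group, however, was the highest of its group for Vip and Npy and the lowest for Tac1. Of 24 measured neuropeptide precursor genes, 10 were called higher in Drd1a cells and 1 higher in Drd2 cells, against 6.67% and 5.30% of all features. Under quantile normalization these counts were 8 and 3, and the median of the list was 0.21, beside 0.36 in the limma fit of the deposited values. The 1 higher in Drd2 cells in that fit was Penk, the enkephalin precursor of indirect-pathway neurons (-0.69 ± 0.085, adjusted p = 9.39e-07).

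**Figure D1:**
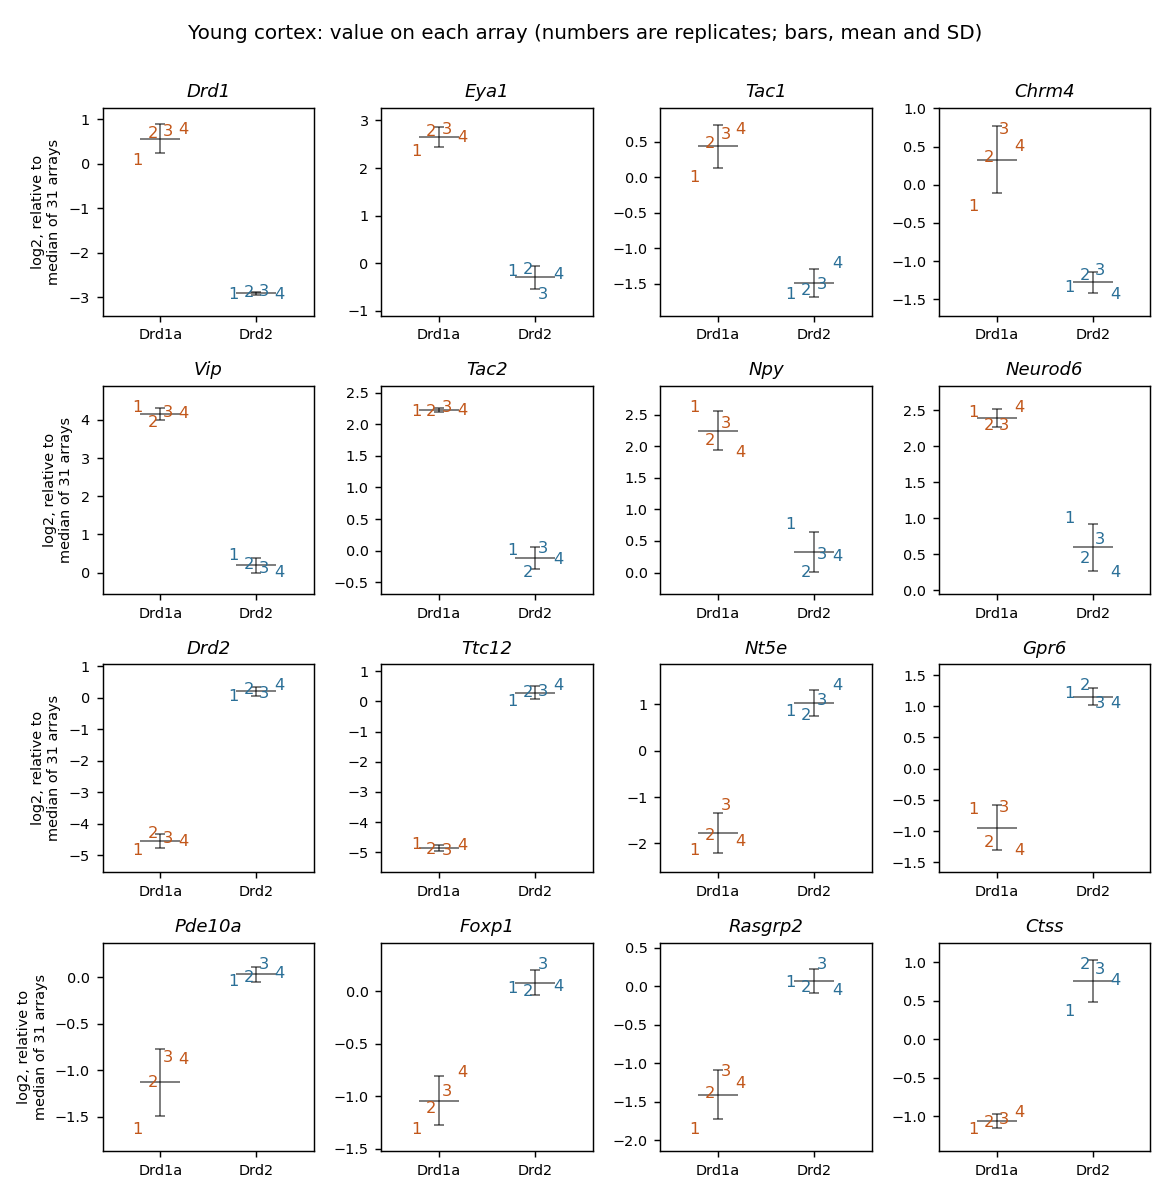
Centred log2 value (y axis) of 16 genes on each of the 4 Drd1a arrays (left in each panel, orange) and the 4 Drd2 arrays (right, blue) of young cortex. Digits are replicate numbers, and the bar shows the mean and SD. In all 16 panels the 2 groups are separate. Drd1a replicate 1 is the lowest array of its group for Drd1, Eya1, Tac1, Chrm4, Drd2, Nt5e, Pde10a, Foxp1, Rasgrp2 and Ctss.

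Genes known from the 2 striatal pathways followed the receptors in the cortex. All 9 measured genes of the direct pathway were higher in Drd1a cells (median difference 1.60, and 1.95 under quantile normalization, beside -0.0055 for all features). Eya1, a transcriptional coactivator with phosphatase activity, stood at 2.35, 2.77, 2.82 and 2.64 on the Drd1a arrays, against -0.17, -0.14, -0.66 and -0.23 on the Drd2 arrays (2.94 ± 0.13). Chrm4, the M4 muscarinic receptor gene (2.58 under quantile normalization), stood at -0.29, 0.36, 0.73 and 0.51 on the Drd1a arrays, against -1.35, -1.20, -1.13 and -1.43 on the Drd2 arrays (1.60 ± 0.18). Replicate 1 of the Drd1a group was the lowest of its group for both. Isl1, a transcription factor that specifies direct-pathway neurons, differed by 1.38 ± 0.20. Slc35d3, whose product is needed for D1 receptors to reach the cell surface in mice, differed by 1.25 ± 0.17, and Pdyn, the dynorphin precursor, by 1.03 ± 0.16. Ebf1, a transcription factor of the same neurons, was the smallest of the 9 and the only one whose arrays overlapped. It stood at -0.68, -0.26, 0.25 and 0.12 on the Drd1a arrays, against -0.25, -0.88, -0.67 and -0.96 on the Drd2 arrays (0.55 ± 0.17, adjusted p = 0.0308). Its call was lost without Drd1a replicate 3 or 4 or Drd2 replicate 2, 3 or 4 (0.42 to 0.56, lowest adjusted p = 0.0612). It was also lost in limma fits of only the groups compared (adjusted p = 0.133), with the replicate block (adjusted p = 0.0622) and without the arrays of high median (adjusted p = 0.0504). The difference of Ebf1 was 1.02 under quantile normalization and 0.87 without replicate 1 of both groups.

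All 5 measured genes of the indirect pathway were higher in Drd2 cells (median -1.59). Gpr6, a constitutively active receptor that raises cyclic AMP, stood at -0.65, -1.18, -0.62 and -1.32 on the Drd1a arrays, against 1.21, 1.33, 1.04 and 1.04 on the Drd2 arrays (-2.10 ± 0.24). Upb1, an enzyme of pyrimidine breakdown, stood at -1.11, -1.18, -1.01 and -1.47 on the Drd1a arrays, against 0.57, 0.33, 0.43 and 0.25 on the Drd2 arrays (-1.59 ± 0.13). Groups were well apart for both. Plxdc1, a transmembrane receptor gene, was the weakest of the 5, its arrays overlapped (-0.49 ± 0.17, adjusted p = 0.0481), and its call was lost without Drd1a replicate 2, 3 or 4 or Drd2 replicate 1, 2 or 4 (-0.38 to -0.50, lowest adjusted p = 0.0789). Centring each array on its median also ended the call of Plxdc1 (-0.49, adjusted p = 0.0516). Both pathway lists include the gene that names the cells, so their direction is in part that of Drd1 and Drd2.

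Genes shared by both kinds of striatal projection neuron were higher in Drd2 cells as well, 12 of 12 measured, with differences from -1.59 to -0.55 and a median of -0.96. Rxrg, a retinoid X receptor, stood at -1.98, -1.77, -1.11 and -1.10 on the Drd1a arrays, against -0.19, -0.11, 0.30 and 0.41 on the Drd2 arrays (-1.59 ± 0.18). Rasgrp2, an activator of the small G protein Rap1, stood at -1.86, -1.39, -1.11 and -1.27 on the Drd1a arrays, against 0.044, -0.013, 0.29 and -0.057 on the Drd2 arrays (-1.47 ± 0.12). Pde10a, the cyclic nucleotide phosphodiesterase concentrated in striatal projection neurons, stood at -1.64, -1.13, -0.87 and -0.89 on the Drd1a arrays, against -0.043, -0.0068, 0.14 and 0.040 on the Drd2 arrays (-1.16 ± 0.11). For all 3 genes the Drd2 arrays lay near 0, the Drd1a arrays were separate from them, and replicate 1 was the lowest. The transcription factors Meis2 (-1.14 ± 0.10) and Foxp1 (-1.12 ± 0.087) followed the same order, and Ppp1r1b, which encodes DARPP-32, had the smallest difference of the 12 (-0.55 ± 0.078).

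Averaged over these 12 genes, the Drd1a arrays of young cortex stood at -1.38, -1.0, -0.76 and -0.80, against -0.059, -0.033, 0.12 and 0.089 on the Drd2 arrays. On the arrays of young striatum the same mean was 0.088 to 0.12 in Drd1a cells and 0.19 to 0.27 in Drd2 cells. The cortical Drd2 arrays were thus within 0.333 of all 7 striatal arrays, while the cortical Drd1a arrays were 0.848 or more below them. The mean of the 5 indirect-pathway genes was 0.32 to 0.51 on the cortical Drd2 arrays, beside 0.49 to 0.62 on the striatal Drd2 arrays. The direct-pathway genes averaged 0.32 to 0.92 on the cortical Drd1a arrays, beside 1.81 to 1.82 on the striatal Drd1a arrays. The part that striatal neurons in or beside the dissected tissue may have in these values was not tested.

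**Figure D2:**
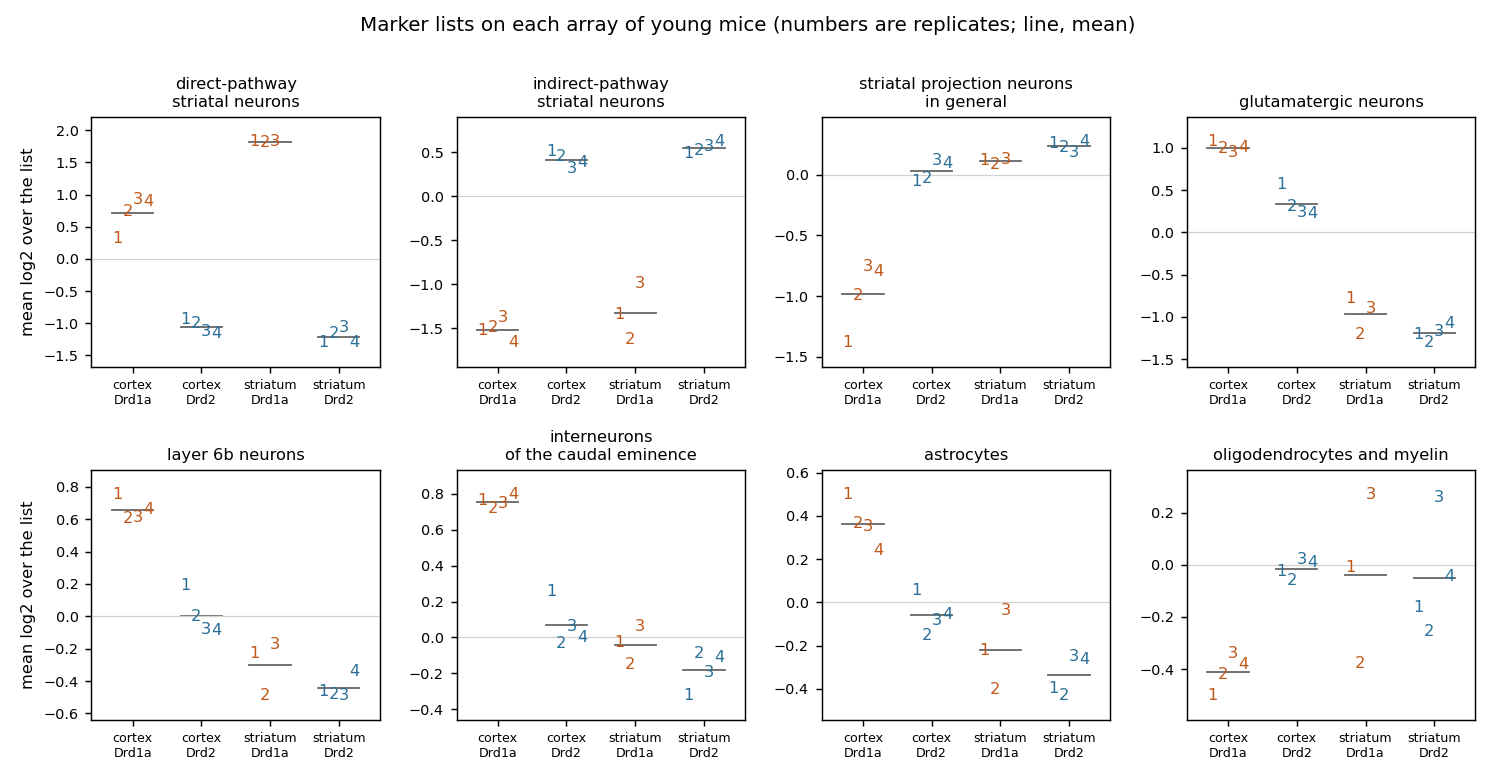
Mean centred log2 value (y axis) of 8 marker lists on each array of young mice, with cortex Drd1a, cortex Drd2, striatum Drd1a and striatum Drd2 cells from left to right, digits for replicates and a line for the mean. For genes of striatal projection neurons in general the cortical Drd2 arrays (-0.059 to 0.12) lie beside the striatal arrays and the cortical Drd1a arrays (-1.38 to -0.76) far below them, while glutamatergic genes place both cortical groups above the striatum.

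To describe how far the called genes are also regional genes, they were set against the difference between striatum and cortex in Drd1a cells of old mice. It shares no array with the comparison. Both were tested in the same limma fit with a shared estimate of each feature's spread, so their calls are not fully independent. Of the 866 features higher in Drd2 cells, 447 were called higher in striatum (51.6%, beside 7.32% of all features) and 10 higher in cortex. Of the 1090 features higher in Drd1a cells, 695 were called higher in cortex (63.8%, beside 8.80% of all features) and 21 higher in striatum. Those 447 made up 37.4% of all striatum-higher features, and those 695 made up 48.3% of all cortex-higher features. A further 374 features higher in Drd1a cells and 409 higher in Drd2 cells were called in neither direction between the regions. Tac1, Sfxn1 and Gnb4 were among those higher in Drd1a cells, and Ttc12, Nt5e, Ankk1, Gpr6, Slitrk6, Ctss and Fst among those higher in Drd2 cells. Some came near a call in the limma contrast of striatum minus cortex. These were Tac1 (0.48, adjusted p = 0.0567), Gnb4 (-0.46, adjusted p = 0.0637) and Gpr6 (0.58, adjusted p = 0.0964). The differences of Ttc12 (0.010), Ctss (-0.0205) and Fst (0.0235) were small. A missing call does not show that a gene is equal in the regions. Setting the genes against the regions was chosen after the data had been seen.

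Markers of cortical projection neurons divided by layer. Of 10 measured genes of glutamatergic neurons, 5 were higher in Drd1a cells and 1 in Drd2 cells (median 0.78). Slc17a7, the vesicular glutamate transporter of most cortical projection neurons, stood at 2.20, 2.01, 1.98 and 2.17 on the Drd1a arrays, against 0.96, 0.72, 0.35 and 0.55 on the Drd2 arrays (1.44 ± 0.19). Neurod6, a transcription factor of cortical pyramidal neurons, stood at 2.47, 2.29, 2.28 and 2.54 on the Drd1a arrays, against 1.00, 0.43, 0.70 and 0.24 on the Drd2 arrays (1.80 ± 0.35). Replicate 1 was the highest Drd2 array for both, and the groups remained apart. Slc17a6, a second vesicular glutamate transporter, differed by 1.04 ± 0.17, and Sv2b, a synaptic vesicle protein gene, by 0.65 ± 0.087. Baiap2, a postsynaptic scaffold gene on the same list, was higher in Drd2 cells (-0.69 ± 0.085). Under quantile normalization the differences were smaller and still called, 0.59 for Slc17a7, 0.89 for Neurod6 and 0.43 for Slc17a6, and the median of the list was 0.29.

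The deepest layers held most of the laminar genes higher in Drd1a cells. Of 8 measured genes of layer 6b, the band beneath layer 6 that derives from the subplate, 5 were higher in Drd1a cells and none in Drd2 cells (median 0.47). Ccn2, a secreted matrix protein gene that marks this layer, stood at 1.46, 1.22, 1.28 and 1.52 on the Drd1a arrays, against 0.067, -0.036, 0.31 and -0.033 on the Drd2 arrays (1.29 ± 0.14). Nr4a2, an orphan nuclear receptor of layer 6b and the claustrum, stood at 2.14, 1.96, 1.83 and 1.84 on the Drd1a arrays, against 0.97, 0.41, 0.32 and 0 on the Drd2 arrays (1.52 ± 0.32). Both genes were without overlap. Inpp4b (0.89 ± 0.14), a phosphoinositide phosphatase gene, Nxph4 (0.52 ± 0.15), a neurexin ligand gene, and Moxd1 (0.41 ± 0.10) were the other 3. Among 11 corticothalamic layer 6 genes, 5 were higher in Drd1a cells and 2 in Drd2 cells (median 0.099). Tbr1, the transcription factor that specifies these neurons, stood at 2.13, 1.91, 2.05 and 1.99 on the Drd1a arrays, against 0.79, 0.34, 0.32 and 0.39 on the Drd2 arrays (1.56 ± 0.26). Foxp2, a transcription factor of both corticothalamic and striatal neurons, differed by 0.96 ± 0.10, and Sulf1, a heparan sulfate sulfatase gene, by 0.95 ± 0.13. Syt6, a synaptotagmin gene (-0.47 ± 0.095), and Tle4, a transcriptional corepressor gene (-0.47 ± 0.084), were the 2 higher in Drd2 cells. Of 7 genes of layer 6 and claustral neurons that project within the forebrain, 3 were higher in Drd1a cells, Nr4a2, the G protein subunit gene Gnb4 (1.08 ± 0.17) and the transcription factor gene Osr1 (0.41 ± 0.11), and none in Drd2 cells. Quantile normalization gave 0.75 for Tbr1, 0.75 for Ccn2, 0.58 for Inpp4b and 1.73 for Foxp2, all called, and ended the calls of Nr4a2 (0.77, adjusted p = 0.0555) and Osr1 (0.25, adjusted p = 0.051). The call of Nxph4 was lost without Drd1a replicate 1 or 3 (0.47 to 0.48, lowest adjusted p = 0.0505) and that of Osr1 without Drd1a replicate 4 or Drd2 replicate 4 (0.34 to 0.36, lowest adjusted p = 0.0509).

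Layer 5 gave a mixed picture. The counts in this paragraph stand beside 6.67% of all features higher in Drd1a cells and 5.30% higher in Drd2 cells. Fezf2, the transcription factor that directs layer 5 neurons to project below the cortex, stood at 1.32, 1.31, 1.49 and 1.39 on the Drd1a arrays, against 0.34, 0.18, 0.10 and 0.30 on the Drd2 arrays (1.15 ± 0.15). Bcl11b, which acts downstream of Fezf2 in those neurons and is also expressed in striatal projection neurons, ran the other way, with -0.74, -0.92, -0.50 and -0.67 on the Drd1a arrays and -0.095, 0.087, 0.27 and 0.070 on the Drd2 arrays (-0.79 ± 0.10). Neither gene's arrays overlapped. Of the 11 genes of that class, 3 were higher in Drd1a cells and 1 in Drd2 cells. Of 6 genes of layer 5 neurons projecting within the forebrain, 1 was higher in each group, Rspo2 in Drd1a cells (0.64 ± 0.12) and Pld5 in Drd2 cells (-0.55 ± 0.13). Of 7 genes of layer 4, Rorb, its defining nuclear receptor, was higher in Drd1a cells (0.51 ± 0.10) and the potassium channel gene Kcnh5 in Drd2 cells (-0.51 ± 0.12). Of 10 genes of layers 2 and 3, Lhx2 was higher in Drd1a cells (0.45 ± 0.14, adjusted p = 0.0291) and Calb1, which encodes calbindin and is also expressed in striatum, in Drd2 cells (-0.52 ± 0.10). The difference of Lhx2 was -0.013 under quantile normalization (adjusted p = 0.973), and its call was lost without Drd1a replicate 1, 2 or 3 or Drd2 replicate 1 or 3 (0.39 to 0.45, lowest adjusted p = 0.0558). Quantile normalization gave 0.57 for Fezf2, 0.41 for Rspo2 and 0.33 for Rorb, all still called, and 2 genes of layers 2 and 3 higher in Drd2 cells.

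**Figure D3:**
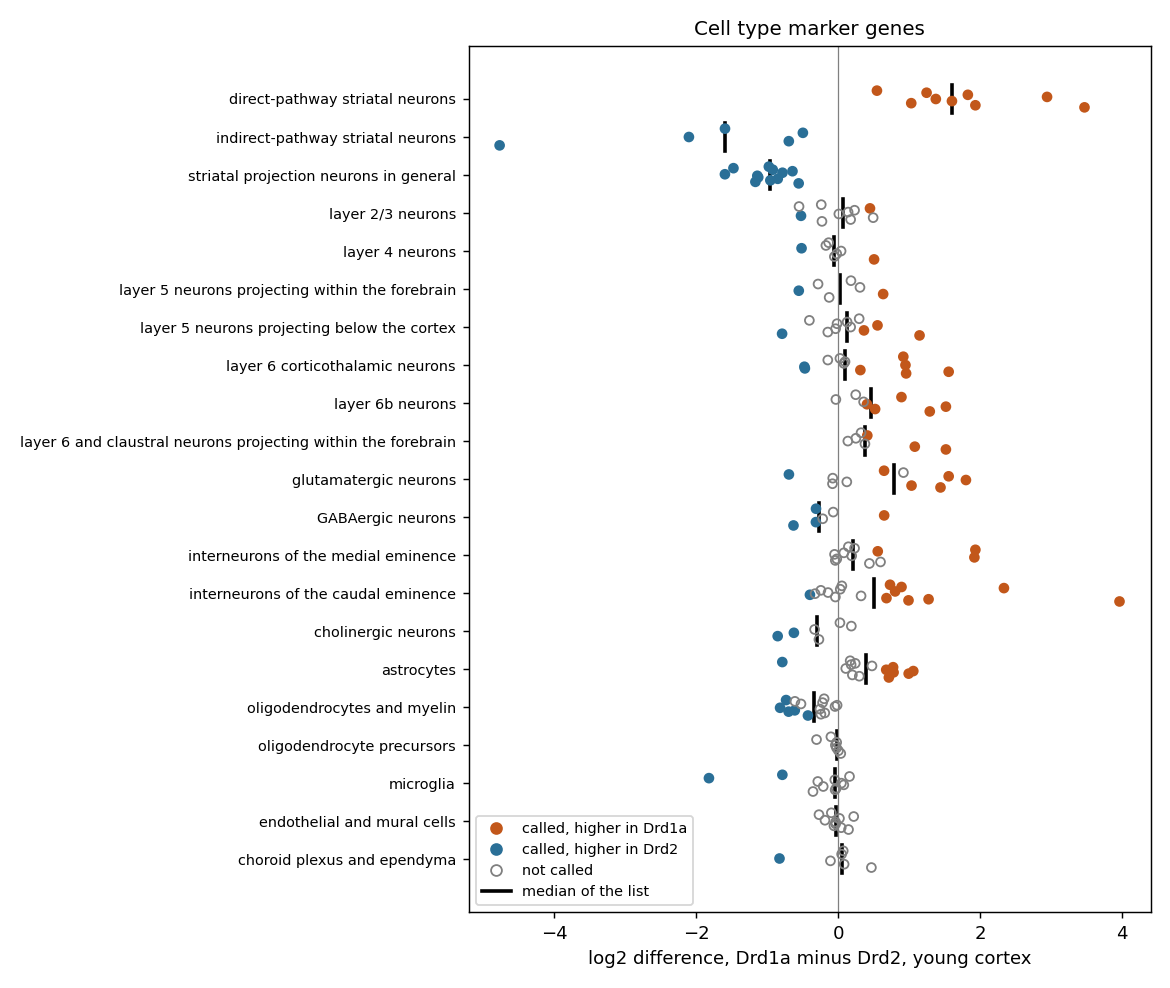
Difference of each measured marker gene between Drd1a and Drd2 cells of young cortex (x axis, log2, Drd1a minus Drd2) for 21 cell type lists (rows). Filled points were called, orange higher in Drd1a cells and blue higher in Drd2 cells, open points were not, and the bar is the list's median; the 9 direct-pathway genes lie right of 0, the 12 genes of striatal projection neurons in general lie left of it, the 5 indirect-pathway genes lie left of it as well, and in the lists of oligodendrocyte precursors and of endothelial and mural cells all points are open.

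Interneuron genes did not all go one way. Of 16 measured genes of interneurons from the caudal ganglionic eminence, 8 were higher in Drd1a cells and 1 in Drd2 cells (median 0.50). Besides Vip and Tac2 they were Adarb2, an RNA-editing enzyme homologue that marks this class, at 1.15, 1.13, 1.09 and 1.16 on the Drd1a arrays, against -0.048, -0.068, -0.22 and -0.24 on the Drd2 arrays (1.27 ± 0.11), and Htr3a, the ionotropic serotonin receptor, at 0.84, 1.02, 0.60 and 1.33 on the Drd1a arrays, against 0.10, -0.030, -0.10 and -0.14 on the Drd2 arrays (0.99 ± 0.12). The 4 values of Adarb2 in Drd1a cells lay within 0.074 of each other. Crh, the corticotropin-releasing hormone gene (0.89 ± 0.16), Cck, the cholecystokinin gene (0.80 ± 0.13), the chemokine gene Cxcl14 (0.73 ± 0.19) and the transcription factor gene Prox1 (0.68 ± 0.17) were also higher in Drd1a cells. Reln, the secreted protein of layer 1 and other interneurons, was higher in Drd2 cells with overlapping arrays (-0.40 ± 0.12, adjusted p = 0.0236), and its call was lost without Drd1a replicate 1 or 2 or Drd2 replicate 3 or 4 (-0.29 to -0.33, lowest adjusted p = 0.1). Of 12 genes of interneurons from the medial eminence, 3 were higher in Drd1a cells (Tac1, Npy and the chromatin organiser gene Satb1, 0.56 ± 0.14) and none in Drd2 cells. Sst, the somatostatin gene, differed by 0.60 ± 0.27 (adjusted p = 0.178), Pvalb, the parvalbumin gene, by 0.44 ± 0.29 (adjusted p = 0.457) and Lhx6, the transcription factor of the whole class, by -0.038 ± 0.12 (adjusted p = 0.966), and none of the 3 was called. Quantile normalization lowered the median of the caudal list to 0.23, gave 0.46 for Crh and 0.45 for Prox1, both still called, and ended the calls of Cck (0.30, adjusted p = 0.0661), Cxcl14 (0.44, adjusted p = 0.101), Satb1 (0.26, adjusted p = 0.11) and Reln (-0.11, adjusted p = 0.77).

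Genes common to GABAergic neurons, striatal ones included, were called in both directions. Gad1, which makes GABA, stood at -0.43, -0.51, -0.36 and -0.60 on the Drd1a arrays, against 0.18, 0.074, 0.32 and 0.031 on the Drd2 arrays (-0.63 ± 0.092), and Gad2, its paralogue, differed by -0.31 ± 0.082. Of the 6 measured, 3 were higher in Drd2 cells and 1, the transcription factor gene Dlx1, in Drd1a cells (0.65 ± 0.16, or 0.37 under quantile normalization). Genes of cholinergic neurons, which the Drd2 label can also mark in striatum, included 2 of 6 higher in Drd2 cells, the vesicular acetylcholine transporter Slc18a3 (-0.85 ± 0.23) and the choline transporter Slc5a7 (-0.62 ± 0.19), while Chat, the synthesising enzyme, was not called (-0.27 ± 0.15). The call of Slc18a3 was lost without Drd2 replicate 2 (-0.73, adjusted p = 0.0519) and that of Slc5a7 without Drd1a replicate 2 or 4 or Drd2 replicate 2 or 3 (-0.55 to -0.62, lowest adjusted p = 0.0529) and under quantile normalization (-0.63, adjusted p = 0.0758).

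The remaining genes with the largest differences came from varied families. Higher in Drd1a cells, Vegfd, a vascular endothelial growth factor, stood at 2.48, 1.93, 2.19 and 2.17 on the Drd1a arrays, against 0.76, 0, 0.045 and 0.27 on the Drd2 arrays (1.92 ± 0.20), and Rai14, an actin-binding protein gene, differed by 1.82 ± 0.15. Prss12, the synaptic protease neurotrypsin (1.75 ± 0.14), Nxph3, a neurexin ligand (1.71 ± 0.16), Cmbl, a hydrolase (1.68 ± 0.19), Vxn, known as vexin (1.68 ± 0.25), and Lxn, the carboxypeptidase inhibitor latexin (1.65 ± 0.16), were of similar size. Quantile normalization gave 1.19 for Vegfd and between 0.71 (Vxn) and 1.06 (Prss12) for Prss12, Nxph3, Cmbl, Vxn and Lxn, all still called. The largest difference in favour of Drd2 cells away from the Drd2 locus was that of Nt5e, which encodes CD73, the surface enzyme that makes adenosine from AMP. It stood at -2.16, -1.83, -1.17 and -1.95 on the Drd1a arrays, against 0.84, 0.77, 1.09 and 1.40 on the Drd2 arrays (-2.80 ± 0.18). Slitrk6, a neuronal transmembrane protein gene, stood at -0.22, -0.70, -0.16 and -0.81 on the Drd1a arrays, against 1.21, 1.70, 1.25 and 2.03 on the Drd2 arrays (-2.02 ± 0.28). Groups were far apart for both. Clspn, which encodes the replication checkpoint protein claspin, differed by -1.81 ± 0.25, Crabp2, a carrier of retinoic acid, by -1.68 ± 0.23, and Fst, the activin antagonist follistatin, by -1.63 ± 0.24. Dach1, a transcriptional cofactor, differed by -1.57 ± 0.19 and Mro by -1.52 ± 0.17.

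Markers of glia differed between the groups as well. Of 14 measured astrocyte genes, 6 were higher in Drd1a cells and 1 in Drd2 cells, and 13 of the 14 differences were positive (median 0.39). Slc1a3, a glial glutamate transporter, stood at 1.13, 0.96, 0.72 and 0.55 on the Drd1a arrays, against 0, -0.45, 0.050 and -0.22 on the Drd2 arrays (0.99 ± 0.17), and Aldoc, the astrocytic aldolase, differed by 1.06 ± 0.22, a call that quantile normalization ended (0.64, adjusted p = 0.0554). Slc4a4, a bicarbonate transporter, was the 1 higher in Drd2 cells (-0.78 ± 0.11). The mean over the astrocyte list was 0.24 to 0.50 on the Drd1a arrays and -0.15 to 0.057 on the Drd2 arrays. Of 14 genes of oligodendrocytes and myelin, 5 were higher in Drd2 cells and none in Drd1a cells, and all 14 differences were negative (median -0.34). The means were -0.50 to -0.34 on the Drd1a arrays and -0.062 to 0.019 on the Drd2 arrays. They included Ermn, a cytoskeletal myelin protein gene (-0.82 ± 0.21), and Cnp, a myelin enzyme gene (-0.61 ± 0.17, adjusted p = 0.0164), whose call was lost without Drd1a replicate 3 or Drd2 replicate 1 or 3 (-0.47 to -0.58, lowest adjusted p = 0.0521). The number called was 3 without Drd1a replicate 2 or Drd2 replicate 4, and 1 without replicate 1 of both groups. Of 11 microglial genes, Ctss and Tyrobp were higher in Drd2 cells and none in Drd1a cells (median -0.045), beside 5.30% and 6.67% of all features. Ctss, the lysosomal protease cathepsin S, stood at -1.17, -1.08, -1.05 and -0.95 on the Drd1a arrays, against 0.36, 0.97, 0.91 and 0.76 on the Drd2 arrays (-1.82 ± 0.27), and Tyrobp, a microglial adaptor protein gene, differed by -0.78 ± 0.23, a call lost without Drd1a replicate 1 or 3 or Drd2 replicate 3 (-0.68 to -0.73, lowest adjusted p = 0.0625). None of 7 genes of oligodendrocyte precursors and none of 10 genes of endothelial and mural cells were called by limma, with 1 of each at an unadjusted p under 0.05. Quantile normalization called 1 of each list higher in Drd2 cells, as did leaving out Drd2 replicate 1 for the precursors. Of 6 genes of choroid plexus and ependyma, Clic6 was higher in Drd2 cells (-0.84 ± 0.17). With no absolute level in the values, whether a glial message was present or absent could not be read, and the part of glial RNA in other differences was not tested.

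Genes of synaptic transmission showed called differences in both directions. Over all features, 6.67% were higher in Drd1a cells and 5.30% in Drd2 cells. Among 14 acetylcholine receptor genes, Chrm4 and Chrna5, a nicotinic subunit of layer 6 neurons (1.03 ± 0.17), were higher in Drd1a cells and none in Drd2 cells, or 1 without Drd1a replicate 3. Of 15 serotonin and adrenergic receptor genes, 2 were higher in Drd1a cells and 3 in Drd2 cells. Htr1a stood at 1.05, 1.19, 1.01 and 1.36 on the Drd1a arrays, against 0.57, 0.77, 0.20 and 0 on the Drd2 arrays (0.77 ± 0.15), and Htr1b at -0.95, -0.72, -1.20 and -0.79 on the Drd1a arrays, against 0, -0.15, 0.053 and 0.29 on the Drd2 arrays (-0.96 ± 0.18). These 2 genes, both for inhibitory serotonin receptors, thus had opposite differences. Of 23 opioid, cannabinoid and peptide receptor genes, 4 were higher in Drd1a cells, with the cholecystokinin receptor gene Cckbr the largest (0.94 ± 0.14), and 1 in Drd2 cells, the substance P receptor gene Tacr1 (-0.63 ± 0.11). Tacr1 was thus opposite in direction to Tac1. Without Drd1a replicate 1 or Drd2 replicate 2 the number of peptide receptors higher in Drd1a cells was 2, which leaves this list near the shares over all features. Of 14 GABA and glycine receptor subunits, 3 were higher in Drd1a cells, Glra2 (1.03 ± 0.15), Gabra5 (0.87 ± 0.21) and Gabra3 (0.86 ± 0.18), and 3 in Drd2 cells. Gabra2, the largest of those (-0.83 ± 0.25, adjusted p = 0.0248), had Drd1a arrays from -1.41 to -0.052 and lost its call without Drd1a replicate 1 or 2 or Drd2 replicate 1, 2 or 3 (-0.62 to -0.83, lowest adjusted p = 0.0504). The number higher in Drd2 cells was 1 without Drd1a replicate 1. Of 17 glutamate receptor subunits, 3 were higher in Drd1a cells and 4 in Drd2 cells. Among them Gria4 was higher in Drd1a cells (0.71 ± 0.15) and Gria1, a subunit of the same AMPA receptor family, in Drd2 cells (-0.41 ± 0.074). Quantile normalization reduced Chrna5 to 0.53, Cckbr to 0.49 and Gabra3 to 0.53, all still called, and ended the calls of Htr1a (0.25, adjusted p = 0.245), Glra2 (0.54, adjusted p = 0.101) and Gabra5 (0.54, adjusted p = 0.0717).

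Ion channel genes leaned towards Drd2 cells for sodium and calcium channels. Of 22 such subunits, 9 were higher in Drd2 cells and 2 in Drd1a cells (median -0.24). The number higher in Drd1a cells was 1 without Drd1a replicate 1, 2 or 3 or Drd2 replicate 1, 3 or 4, and 1 under quantile normalization. Scn4b, a sodium channel subunit of striatal projection neurons, stood at -2.00, -1.49, -1.05 and -0.74 on the Drd1a arrays, against -0.30, -0.16, 0 and 0.25 on the Drd2 arrays (-1.27 ± 0.22). The calcium channel subunits Cacna2d2 (-1.01 ± 0.11), Cacna2d3 (-0.68 ± 0.12) and Cacnb2 (-0.62 ± 0.10) followed. Of 47 potassium channel subunits, 10 were higher in each group. The number higher in Drd1a cells was 5 without Drd1a replicate 1, and 6 without Drd2 replicate 3 or Drd2 replicate 4 or under quantile normalization. Kcnk2, a background potassium channel that cyclic AMP signalling closes, stood at -1.22, -0.70, -0.66 and -0.73 on the Drd1a arrays, against 0.056, 0.36, 0.52 and 0.67 on the Drd2 arrays (-1.23 ± 0.12). Kcnip1 was higher in Drd1a cells (0.90 ± 0.19) and its paralogue Kcnip2 in Drd2 cells (-0.79 ± 0.10), both auxiliary subunits of A-type potassium channels, and quantile normalization ended the call of Kcnip1 (0.36, adjusted p = 0.0865).

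Signalling genes downstream of receptors were called in both directions. Of 24 cyclic nucleotide genes, 11 were higher in Drd2 cells and 3, or 5 without Drd1a replicate 4, in Drd1a cells (median -0.17). Pde7b differed by -1.04 ± 0.10, next to Pde10a. In the other direction, Pde1a, a calcium-activated phosphodiesterase gene, stood at 1.65, 1.45, 1.39 and 1.5 on the Drd1a arrays, against 0.31, 0.19, 0 and 0.078 on the Drd2 arrays (1.36 ± 0.20), and the adenylyl cyclase gene Adcy2 at 1.23, 1.35, 1.17 and 1.40 on the Drd1a arrays, against 0.47, 0, 0.21 and 0.10 on the Drd2 arrays (1.09 ± 0.12). RGS genes, which shorten G protein signalling, had 6 of 16 higher in Drd2 cells, led by Rgs8 (-0.96 ± 0.10) and Rgs9 (-0.95 ± 0.12), and 4 higher in Drd1a cells, led by Rgs16 (0.84 ± 0.20) and Rgs12 (0.73 ± 0.084). Of 15 calcium-binding protein genes, 6 were higher in Drd1a cells and 3 in Drd2 cells. Ncald stood at 2.10, 1.88, 1.81 and 1.72 on the Drd1a arrays, against 0.60, 0.42, 0 and 0.047 on the Drd2 arrays (1.61 ± 0.15), while its relative Hpca, the calcium sensor hippocalcin, differed by -0.96 ± 0.075. Quantile normalization gave 0.87 for Ncald, 0.75 for Pde1a, 0.57 for Adcy2 and 0.44 for Rgs12, all still called.

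**Figure D4:**
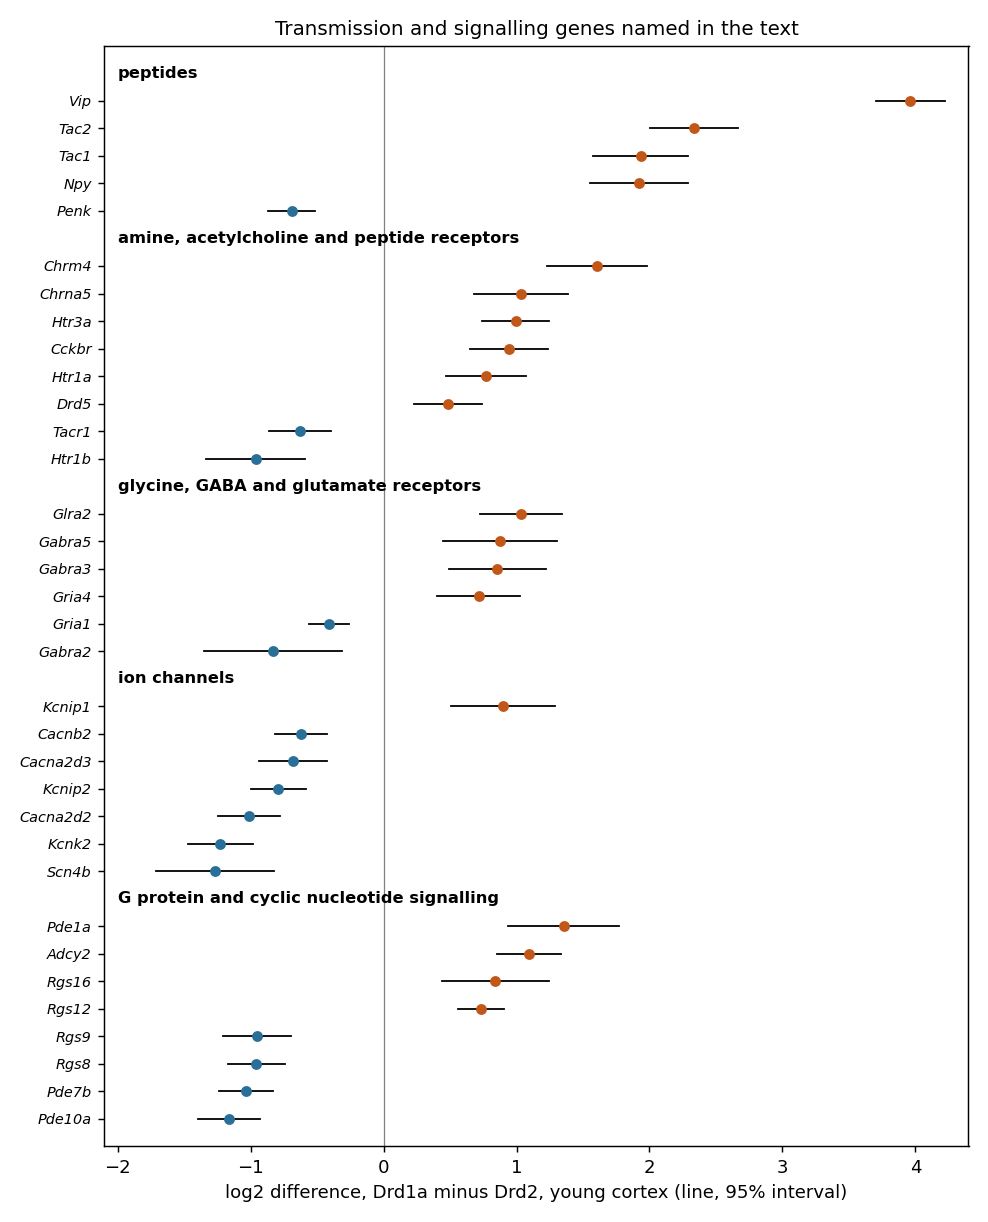
Difference between Drd1a and Drd2 cells of young cortex (x axis, log2, Drd1a minus Drd2) for genes of transmission and signalling named in the text, with 95% intervals of the limma fit as lines. Orange points were higher in Drd1a cells and blue points in Drd2 cells; peptides other than Penk lie right of 0, and both directions occur in each of the other 4 blocks of genes.

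Genes for synaptic and axonal contacts also differed in both directions, beside 6.67% of all features higher in Drd1a cells and 5.30% higher in Drd2 cells. Of 28 genes of synaptic vesicle release, 8 were higher in Drd1a cells, with the syntaxin gene Stx1a the largest (1.23 ± 0.13), and 3 in Drd2 cells, with the calcium sensor gene Doc2b the largest (-0.99 ± 0.14). Of 34 adhesion and synapse-organising genes, 9 were higher in Drd1a cells and 5, or 3 without Drd1a replicate 2 or Drd2 replicate 4, in Drd2 cells. The cerebellin genes Cbln1, at 1.84, 1.74, 1.75 and 2.13 on the Drd1a arrays, against 1.08, 0, 0.14 and 0.56 on the Drd2 arrays (1.42 ± 0.18), and Cbln2 (1.19 ± 0.14), whose secreted products bridge synapses, were among the 9, with the pentraxin gene Nptx1 (1.05 ± 0.14). Flrt3, an adhesion protein gene, was higher in Drd2 cells (-0.90 ± 0.16). Of 47 axon guidance genes, 12 were higher in Drd1a cells, led by the semaphorins Sema3c (1.27 ± 0.10) and Sema5a (1.16 ± 0.16), and 7 in Drd2 cells, led by the Eph receptors Epha6 (-0.69 ± 0.11) and Epha4 (-0.64 ± 0.10). Of 25 cadherin and protocadherin genes, 4 were higher in Drd1a cells, with Cdh10 the largest (0.60 ± 0.12), and 3 in Drd2 cells, with Cdh8 the largest (-0.79 ± 0.14). Quantile normalization gave 0.58 for Stx1a, 0.69 for Cbln1, 0.37 for Cbln2, 0.68 for Nptx1 and 0.78 for Sema3c, all still called. Immediate early genes had 2 of 22 higher in Drd1a cells and 3 in Drd2 cells, beside 6.67% and 5.30% of all features. The median of the list was 0.0013, beside -0.0055 for all features, and with counts this small no lean of the list is read. The 3 higher in Drd2 cells were Egr2 (-1.19 ± 0.31), Egr3 (-0.78 ± 0.19) and Homer1 (-0.65 ± 0.10). The call of Egr2 was lost without Drd1a replicate 1 (-0.91, adjusted p = 0.061), its lowest array. Under quantile normalization 1 was higher in Drd1a cells and 5 in Drd2 cells.

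Housekeeping lists, by contrast, held few called genes. None of 48 oxidative phosphorylation subunits and none of 24 cytosolic ribosomal protein genes were called by limma, with 4 of each at an unadjusted p under 0.05. Their differences ran from -0.18 to 0.19 and from -0.21 to 0.16. Of 50 mitochondrial ribosomal protein genes only Mrpl48 was called (0.27 ± 0.076, adjusted p = 0.0169), just past 1.2-fold, and its call was lost without Drd1a replicate 1, 2 or 3 or Drd2 replicate 1 or 3 (0.23 to 0.26, lowest adjusted p = 0.0437) and under quantile normalization (0.26, under 1.2-fold).

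The same comparison in the cortex of old mice shares no array with that of young mice. It does share the limma fit and its estimate of the spread, so the calls are not fully independent. Of the 1090 features higher in Drd1a cells of young cortex, 435 were also called higher in Drd1a cells of old cortex, which is 39.9% of the young list and 69.7% of the 624 of the old list. Of the 866 higher in Drd2 cells, 298 were also called in old cortex, 34.4% of the young list and 68.5% of the 435 of the old list. One feature was called in opposite directions. Signs were the same in old cortex for 96.1% of the young Drd1a list and 91.6% of the young Drd2 list, and the differences there had medians of 0.31, beside 0.50 in young cortex, and -0.26, beside -0.46 in young cortex. These features were selected by their calls in young cortex. That choice favours larger differences there, so these medians cannot show a change with age. Old cortex had 1059 called features in all (6.48%), 624 positive (3.82%) and 435 negative (2.66%). The difference between the ages was itself called for 17 features (0.104%) in the fit to all 31 arrays, 6 positive (0.0367%) and 11 negative (0.0673%). That number was 0 when only the 4 groups compared were fitted with limma (1460 features at unadjusted p under 0.05, beside 1266 in the fit to all arrays), so the features named next depend on the fit. Leaving out 1 young cortex array gave 1 to 19 features, with 11, 7 and 6 without Drd1a replicates 1, 2 and 4 and 1 and 6 without Drd2 replicates 2 and 3.

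Drd1 was the gene with the largest called age difference in the positive direction, 3.47 in young cortex and 2.01 in old cortex (1.46 ± 0.25, adjusted p = 0.0193). Its mean on the Drd1a arrays was 0.56 ± 0.33 in young cortex and 0.83 ± 0.24 in old cortex (SD, n = 4 each). On the Drd2 arrays it was -2.91 ± 0.031 in young cortex and -1.18 ± 0.50 in old cortex. The next 4 in the positive direction were Mgp, the matrix Gla protein gene (1.48 in young and 0.52 in old cortex, adjusted p = 0.0468), Drc3 (0.48 and -0.45), Pamr1 (0.65 and -0.10) and the semaphorin gene Sema3a (0.10 and -0.63). In the negative direction Psmc3ip, a meiotic recombination cofactor gene, differed by -0.81 in young cortex and 0.52 in old cortex (adjusted p = 0.0468). Rasgrp2 differed by -1.47 in young and -0.56 in old cortex (adjusted p = 0.0284), the sialyltransferase gene St8sia3 by -0.74 and 0.029, the ubiquitin ligase gene Peli2 by -0.91 and -0.18, and the zinc finger gene Zfp180 by -0.65 and 0.012. Vip was 3.96 in young and 3.38 in old cortex and Drd2 was -4.76 and -4.04, and for neither was the difference between the ages called. All 10 age differences named here lost their call with the replicate block (lowest adjusted p = 0.0813) and with only the compared groups fitted (lowest adjusted p = 0.0881). The age difference of Drd1 was not called without Drd2 replicate 2 (1.47, adjusted p = 0.0576) or under quantile normalization (1.27, adjusted p = 0.236), and that of Rasgrp2 was not called without Drd2 replicate 2 (-0.94, adjusted p = 0.0576) or 3 (-0.84, adjusted p = 0.0698). Each of the other 8 age differences lost its call without Drd2 replicate 2 (lowest adjusted p = 0.0576), and 7 of them, all but that of Drc3, without at least 2 more of the 8 arrays. Quantile normalization ended those of Mgp (0.70, adjusted p = 0.167), Psmc3ip (-1.03, adjusted p = 0.245), Peli2 (-0.83, adjusted p = 0.0532) and Zfp180 (-0.69, adjusted p = 0.0532), and it gave 0.83 for the young difference of Mgp and -0.67 for that of Psmc3ip (adjusted p = 0.0534).

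In the striatum, the comparison of Drd1a with Drd2 cells at the same age gave 499 called features (3.05%), 275 positive (1.68%) and 224 negative (1.37%). Of the cortical Drd1a list 138 features were among them in the same direction (12.7% of the cortical list and 50.2% of the 275 of the striatal list), and of the cortical Drd2 list 125 (14.4%, and 55.8% of the 224 of the striatal list). Another 13 features were called in opposite directions. The difference between cortex and striatum was called for 543 features (3.32%), 283 of them positive (1.73%) and 260 negative (1.59%). It was called for 355 features under quantile normalization and for 354 without Drd1a replicate 1.

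Vip, Tac2 and Vegfd were high in Drd1a cells of cortex without a called difference in striatum. Vip differed by 3.96 in cortex and 0.14 in striatum (3.82 ± 0.18 for the difference between the regions, adjusted p = 3.64e-14), Tac2 by 2.34 in cortex and 0.23 in striatum, and Vegfd by 1.92 and -0.061. Chrm3, an M3 muscarinic receptor gene, was not called in cortex (0.67, adjusted p = 0.308) and was higher in Drd2 cells of striatum (-1.73), and Cpne4, a calcium-dependent membrane-binding protein gene, was higher in Drd1a cells of cortex (1.03) and in Drd2 cells of striatum (-0.95). Both differences between the regions were called (adjusted p = 0.00957 and 0.000106). Direct-pathway genes had smaller differences in cortex than in striatum. Ebf1 differed by 0.55 in cortex and 2.74 in striatum (-2.19 ± 0.25), Chrm4 by 1.60 and 3.71, Isl1 by 1.38 and 2.94, and Eya1 by 2.94 and 4.44. Of the 9 direct-pathway genes, 5 had a called smaller difference in cortex, while none of the 5 indirect-pathway genes had a called difference between the regions by limma, with 1 at an unadjusted p under 0.05. Quantile normalization ended the calls between the regions of Chrm4 (-0.74, adjusted p = 0.61), Isl1 (-1.05, adjusted p = 0.225), Chrm3 (2.11, adjusted p = 0.0901), Npy (0.67, adjusted p = 0.149) and Tbr1 (0.88, adjusted p = 0.133), and the cortical difference of Cpne4 was 0.47. The replicate block ended that of Chrm3 (2.38, adjusted p = 0.0539). Prkch, a protein kinase C gene, was higher in Drd2 cells of cortex (-1.09) and in Drd1a cells of striatum (0.64). All 12 genes of striatal projection neurons in general had a called negative difference between the regions (median -0.90). Their median Drd1a minus Drd2 difference was -0.96 in cortex and -0.15 in striatum.

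**Figure D5:**
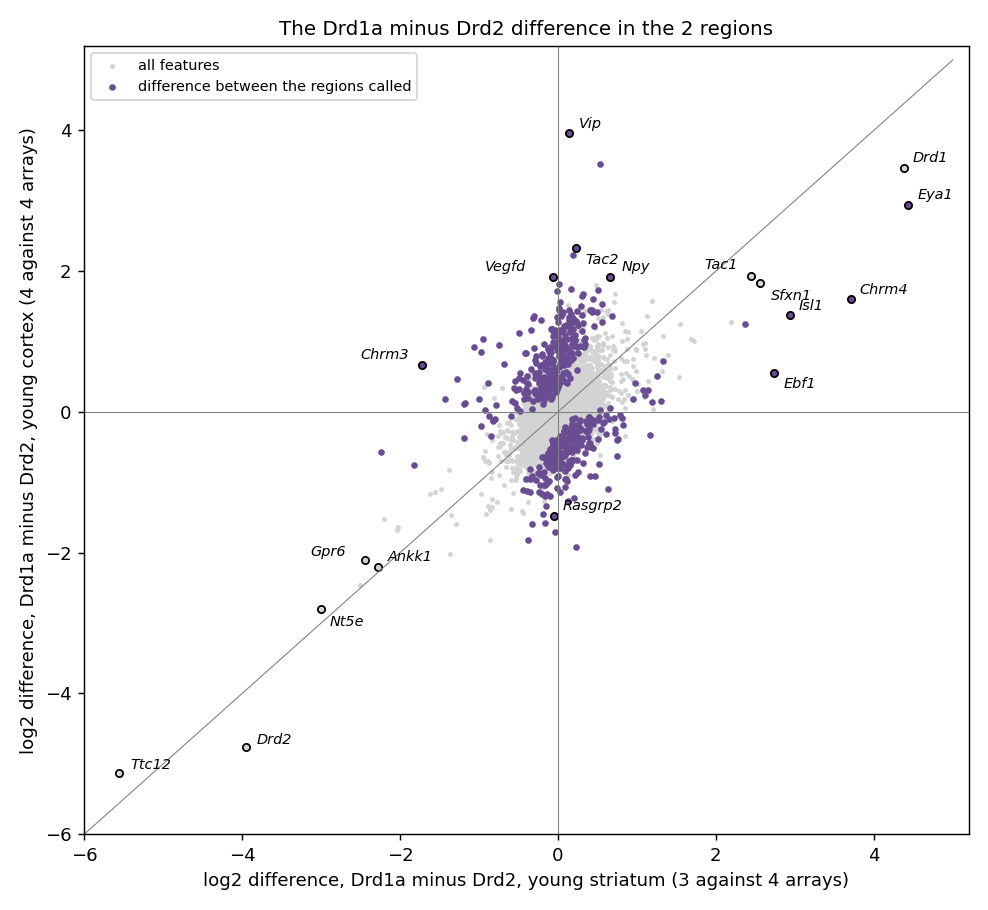
Difference between Drd1a and Drd2 cells (log2, Drd1a minus Drd2) in young cortex (y axis, 4 against 4 arrays) set against that in young striatum (x axis, 3 against 4 arrays), for all 16345 features (grey), with the 543 whose difference between the regions was called in purple, and genes of the text circled. The diagonal marks equal differences; Ttc12, Drd2, Nt5e, Gpr6 and Ankk1 lie near it, Vip, Tac2 and Vegfd lie high on the cortical axis and close to 0 on the striatal axis, Npy (1.92 in cortex, 0.67 in striatum) lies above the diagonal, and Chrm4, Isl1, Ebf1 and Eya1 lie below the diagonal.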

How the data were processed

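The values analysed were deposited as log2 intensities of exon array features, made by the authors with RMA, with mm8 as the genome build, per the submitters' processing notes. No version is given in the sources used here. In the deposited table the median over the 31 arrays was 0 for 16341 of 16345 features, so a value is a level relative to the other arrays of the same feature. It gives no level of one gene against another and no call of absence, and a filter on dim features was not possible. Of the cells of the table, 3 were damaged and 1 was empty, all treated as missing values, and 1 of these lay in young cortex, so Nudt8 was fitted there without Drd2 replicate 3.

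Features were named through the platform annotation and RefSeq. Of the 16345 features, 14793 had 1 gene symbol, 814 several and 738 none in that annotation, and 14720 of 14769 genes were matched by Entrez number. Where a gene had several features, the lowest feature number was used. Near-identical paralogues may share probes.

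A mean for each of the 8 groups was fitted to all 31 arrays with limma 3.58.1 in R 4.3.3, followed by moderated tests (23 residual degrees of freedom). The number of arrays limits the precision, and the median standard error of a difference was 0.0987 on the log2 scale. P-values were adjusted by the Benjamini-Hochberg method over all 16345 features. The scripts were tested on simulated data. The alternatives tried were quantile normalization, centring, fewer samples, blocks, array weights, robust moderation, other fold limits and arrays left out.

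The groups compared and the gene lists were chosen with earlier results of these data known. Genes named were the 15 largest non-overlapping called differences each way, up to 4 called members of each list, members of marker lists and of small lists, and the 5 largest called differences between comparisons each way. Ncam1, Zw10, Tmprss5 and Msx2 were chosen after their values were seen. The 1295 features of unnamed clones, predicted genes, small RNAs or chemosensory receptors entered the counts without being named.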

Additional observations from a re-analysis of the deposited data

Results flagged for a closer look

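Single arrays stood apart from the other 3 of their group, by Dixon's criterion on the gap to the nearest array over the group's range, in 15 of 302 gene and group pairs and in 2 of 88 list and group pairs. Chance alone gives about 1 in 20. Drd1a replicate 1 was the array concerned in 6 of them. It was the lowest of its group for Drd1 (0.070), Baiap2 (-0.70) and Kcnk2 (-1.22), and the highest for Zfp180 (-0.45), Cmbl (2.28) and Stx1a (1.76). It also had the lowest mean over the 12 genes of striatal projection neurons in general, -1.38 beside -1.0 to -0.76 on the other Drd1a arrays. Among the other Drd1a arrays, replicate 2 stood apart for Mro (-0.30), replicate 3 for Tac2 (2.26) and Prss12 (1.59), and replicate 4 for Cdh10 (0.83) and for the mean of the endothelial and mural cell list (-0.045). Among the Drd2 arrays, replicate 1 stood apart for the layer 6 gene Tbr1 (0.79) and for the mean of the calcium-binding protein list (0.17), replicate 2 for Calb1 (-0.23) and Rorb (0, the median of all 31 arrays), replicate 3 for Sulf1 (-0.87) and replicate 4 for Usp28 (0.11).

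The Drd1a minus Drd2 difference was called different between young and old cortex for 10 named genes, by the limma term of young minus old. This term was positive for Drd1 (1.46), Mgp (0.96), Drc3 (0.92), Pamr1 (0.75) and Sema3a (0.73). It was negative for Psmc3ip (-1.32), Rasgrp2 (-0.92), St8sia3 (-0.77), Peli2 (-0.74) and Zfp180 (-0.66). Rasgrp2 is a gene of striatal projection neurons, and its mean on the cortical Drd2 arrays was 0.065 at 6 weeks, beside -0.37 at 2 years.

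Between cortex and striatum of young mice the corresponding term, cortex minus striatum, was called for 67 named genes, among them all 12 genes of striatal projection neurons in general. For the 19 given here, it was positive for the peptide genes Vip (3.82), Tac2 (2.10) and Npy (1.25), for Chrm3 (2.40), Vegfd (1.98), Cpne4 (1.98), Tbr1 (1.54), Mgp (1.46) and Drc3 (0.60). It was negative for Ebf1 (-2.19), Chrm4 (-2.10), Isl1 (-1.56) and Eya1 (-1.49), known from the direct pathway, and for Rasgrp2 (-1.42), Rxrg (-1.27) and Pde10a (-0.96), known from striatal projection neurons in general. It was also negative for Prkch (-1.73), St8sia3 (-0.80) and Zfp180 (-0.63). Quantile normalization ended the calls of Npy (0.67, adjusted p = 0.149), Tbr1 (0.88, adjusted p = 0.133), Chrm3, Chrm4 and Isl1. The call of Drc3 was lost with the replicate block (0.66, adjusted p = 0.115) and without any 1 of 7 of the 8 young cortex arrays (0.53 to 0.63, lowest adjusted p = 0.0528), and that of Chrm3 with the replicate block (2.38, adjusted p = 0.0539).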

How the results depend on the processing

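The number of called features stayed within 1.5 times of 1956 under quantile normalization (1898), centring on array medians (1838), a fit of the compared groups alone (2121), array weights (2413), robust moderation (1944) and a random block for cortex and striatum arrays (1946). It was 2109 without the 6 arrays of high median, 2188 with no fold limit, 1524 to 1911 with 1 young cortex array left out and 1503 without replicate 1 of both groups. It was 694 at a limit of 1.5-fold, and 783 when features called between the regions in old Drd1a cells were left out. The settings without replicate 1 of both groups and without regional features were added after seeing the data. Drd1a cells were higher for 52.4% to 59.5% of called features. The number called for the difference between the ages, 17, was 29 under quantile normalization, 6 after centring, 0 with the compared groups alone, 6 with the replicate block, 31 with array weights, 11 with robust moderation, 1 without the arrays of high median, 6 without replicate 1 of both groups and 1 to 19 with 1 array left out. The number for the regions, 543, was 355 under quantile normalization, 1009 with array weights and 354 to 561 with 1 array left out.

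The replicate block gave 1926 called features, of which 1814 were shared. The correlations of deviations between arrays of the same number were 0.18, 0.014, 0.057 and 0.17, each the highest of its Drd1a array, which is a hint from the data and not from the design, so the numbers were not taken as pairs.

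Of the genes named, 1 reversed, Lhx2 under quantile normalization (-0.013). Of 140 called genes, 112 kept their call under every alternative but the 1.5-fold limit and 126 whichever young cortex array was left out. No alternative left out arrays of old cortex or striatum singly. Depth here is array signal, and with no absolute level a difference between signals near background could not be set apart.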
